A study of Mus musculus with 6 samples.

Results

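Transcripts of 10 fast skeletal muscle genes were followed through 6 libraries of mouse trigeminal ganglion: Myh4, Myh1, Atp2a1, Ckm, Tnni2, Tnnt3, Acta1, Mylpf, Pvalb and Actn3. They were chosen by name, with the difference between the groups already known, and all 10 of them were found among the 17524 genes of the deposited table. The ganglia came from wild-type mice, 3 libraries after vehicle and 3 after NTG. The labels give only the abbreviation NTG for the treatment. No dose, time, strain, age or pooling of animals is given in the sources used here, nor is it said whether each replicate was its own animal, so errors and p-values describe the spread between these samples. Because the same contrast was used to choose the 10 genes, their group differences are given as a description without a test.

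Skeletal muscle contracts when calcium released from the sarcoplasmic reticulum binds troponin on the thin, actin-based filament and lets myosin heads of the thick filament pull on it. Fast and slow fibres build this machinery from different genes of the same families, and the 10 genes are mostly the fast versions. A sensory ganglion is made of neurons, satellite glia, Schwann cells, vessels and connective tissue and has no muscle fibres of its own. Pvalb stands apart by its biology, since parvalbumin buffers calcium both in fast fibres and in proprioceptive and other large sensory neurons.

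The stretches upstream of 6 of the genes are shown because 5 of these genes had lower values in every NTG library and Pvalb, the sixth, did not. Each is the 250 bases before the annotated start in the RefSeq promoter table (GRCm38.p6), 5′ to 3′ on the gene's strand, and capitals mark matches to 4 motifs on either strand: the E-box CANNTG bound by myogenic factors, TATAAA, the M-CAT element CATTCC bound by TEAD factors, and the CArG box bound by serum response factor.
Myh4 (chr11:67237562-67237811, plus strand): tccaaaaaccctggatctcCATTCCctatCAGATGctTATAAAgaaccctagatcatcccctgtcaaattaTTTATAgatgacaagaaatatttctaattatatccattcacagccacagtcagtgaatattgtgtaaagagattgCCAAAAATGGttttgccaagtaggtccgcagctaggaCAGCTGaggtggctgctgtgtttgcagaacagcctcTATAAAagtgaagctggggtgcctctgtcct
Myh1 (chr11:67199852-67200101, plus strand): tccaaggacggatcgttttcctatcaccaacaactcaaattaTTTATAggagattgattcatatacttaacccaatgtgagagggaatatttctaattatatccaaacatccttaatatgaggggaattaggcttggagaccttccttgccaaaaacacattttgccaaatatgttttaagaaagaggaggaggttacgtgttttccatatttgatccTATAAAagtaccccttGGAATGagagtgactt
Acta1 (chr8:123894776-123895025, minus strand): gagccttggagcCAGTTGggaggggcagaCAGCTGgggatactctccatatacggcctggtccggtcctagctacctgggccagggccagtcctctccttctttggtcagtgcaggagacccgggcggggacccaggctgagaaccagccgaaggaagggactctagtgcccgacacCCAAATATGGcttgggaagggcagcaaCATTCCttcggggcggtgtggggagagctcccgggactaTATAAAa
Atp2a1 (chr7:126463074-126463323, minus strand): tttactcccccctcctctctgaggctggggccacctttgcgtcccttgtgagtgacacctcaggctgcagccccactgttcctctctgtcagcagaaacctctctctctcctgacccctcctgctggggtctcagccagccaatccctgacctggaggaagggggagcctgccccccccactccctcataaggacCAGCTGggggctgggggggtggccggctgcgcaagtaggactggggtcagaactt
Ckm (chr7:19410844-19411093, plus strand): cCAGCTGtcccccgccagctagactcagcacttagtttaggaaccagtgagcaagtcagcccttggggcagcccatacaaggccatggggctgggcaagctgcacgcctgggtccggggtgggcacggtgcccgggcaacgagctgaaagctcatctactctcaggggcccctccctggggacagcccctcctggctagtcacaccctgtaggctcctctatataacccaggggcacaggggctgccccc
Pvalb (chr15:78206401-78206650, minus strand): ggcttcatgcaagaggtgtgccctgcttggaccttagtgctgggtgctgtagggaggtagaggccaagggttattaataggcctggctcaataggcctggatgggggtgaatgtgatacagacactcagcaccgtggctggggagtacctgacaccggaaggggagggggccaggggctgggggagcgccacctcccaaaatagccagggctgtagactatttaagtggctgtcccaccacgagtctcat

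The table held a promoter for 7 of the 10 genes. Myh4 and Acta1 each carried a CArG box, at 104 to 95 and 73 to 64 bases before the start, a motif found in 1.47% of 32851 promoter windows of the same length. Both also held an M-CAT element and TATAAA, which were found in 12.6% and 12.4% of the windows. The E-box, a short motif present in 66.2% of the windows, occurred in Myh4, Acta1, Atp2a1, Ckm and Mylpf and not in Myh1. The main Pvalb window held none of these motifs, and the window of a second annotated Pvalb start held 1 E-box. A MEF2 site, searched in its strict form and present in 0.508% of the windows, was found in none of the 8 windows. None of the matches overlapped another motif, and a match is a description of letters, not of binding.

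The values are normalised reads, that is, read counts divided by 1 size factor per library. Whole reads could be recovered from them. Libraries held 18813027 to 20191300 reads in vehicle and 19248592 to 23774244 in NTG, so 3 reads, the level that a count of 0 still allows, correspond to 2.60 to 3.30 normalised reads. The genes that define the ganglion were abundant: the 12 neuronal and glial markers examined, among them Tubb3, Prph and Isl1, summed to 11216 to 12454 CPM, which are reads scaled to a common library total. The 9 muscle genes other than Pvalb together reached only 9.62, 12.8 and 17.5 CPM in vehicle replicates 1 to 3, and 5.13, 5.40 and 4.71 CPM in NTG replicates 1 to 3. Behind these sums stand 181, 258 and 329 reads in the vehicle libraries, against 99, 104 and 112 after NTG. Transcripts of these 9 genes were thus present at a trace level. The groups did not overlap in this sum, but the genes were chosen with the difference known. In bulk tissue, fewer cells that carry these transcripts and less RNA per cell cannot be told apart.

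Every NTG library lay under every vehicle library in 7 of the 10 genes, a pattern shown by 19.9% of all 17524 genes. Fold changes are NTG minus vehicle on the scale of log2(normalised reads + 1), fitted with limma over all genes, and a gene was called at a Benjamini-Hochberg adjusted p under 0.05. By that call 6 of the 10 were lower and 0 higher, where 13.5% of 17475 genes fell (25.8% were called in either direction). At least 2-fold lower values on this scale were seen in 6 of the 10, against 1.8% of all genes. The 10 genes were chosen for this difference, so these counts restate the choice and nothing is read from them. Vehicle replicate 3 held the highest value of 6 of the 10 genes, vehicle replicate 2 of Myh1 and Ckm, and vehicle replicate 1 of Mylpf.

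**Figure D1:**
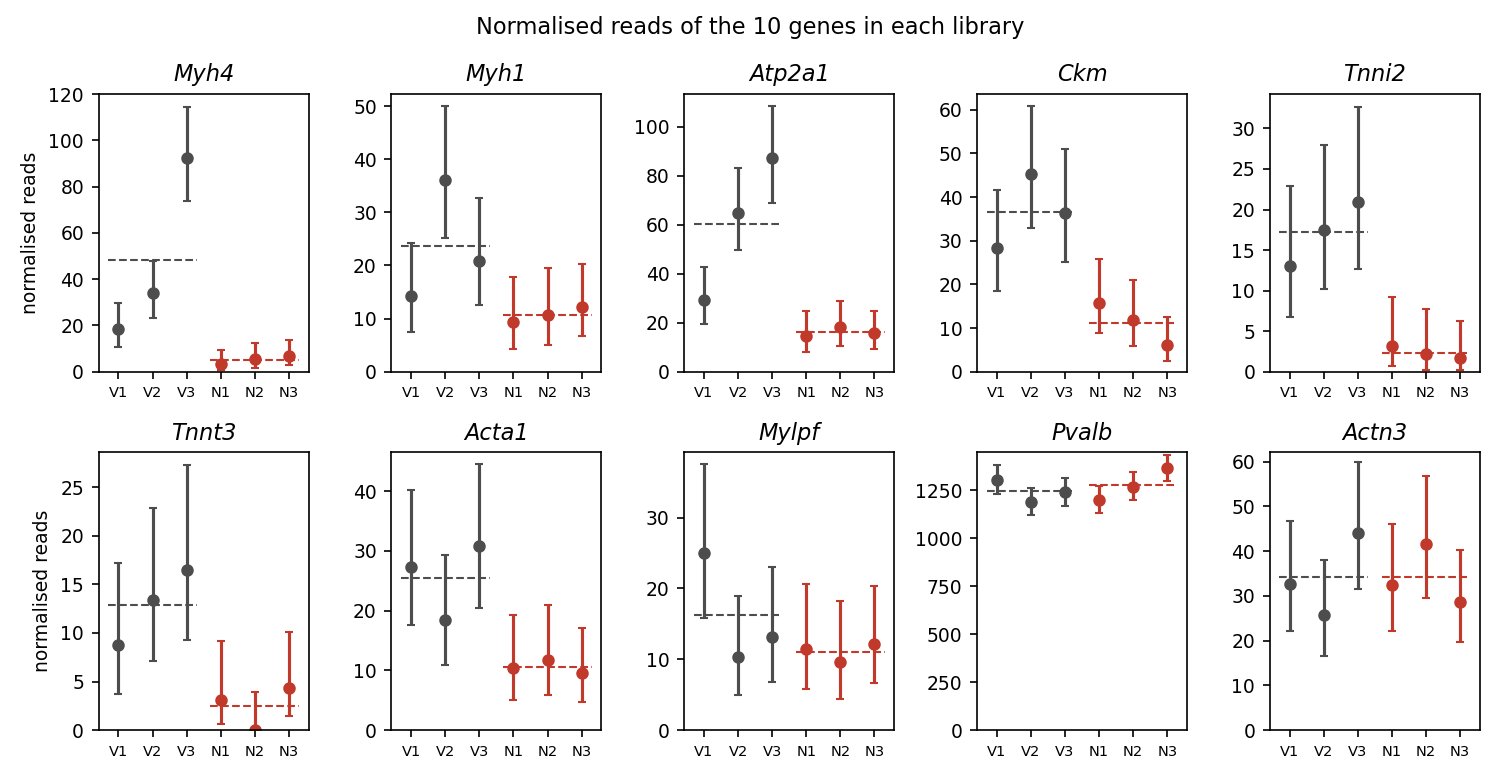
Normalised reads of each gene in the 3 vehicle libraries (V1 to V3, grey) and the 3 NTG libraries (N1 to N3, red). Points are library values, bars are exact 95% Poisson intervals that cover counting error only, and dashed lines are group means; the first 7 panels show NTG values below every vehicle value, while Mylpf, Pvalb and Actn3 overlap.

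Myosin heavy chains are the motor proteins of the thick filament. Myh4 encodes the chain of the fastest fibres (type IIb) and lies on chromosome 11 (67237812 to 67260447, plus strand, GRCm38). It had 18.5, 34.0 and 92.5 normalised reads in vehicle replicates 1 to 3, and 3.14, 5.33 and 6.94 in NTG replicates 1 to 3. Vehicle replicate 3 stood far above the other vehicle libraries, and NTG replicate 1 held just 3 reads. Myh4 averaged 48.3 ± 39.0 in vehicle and 5.14 ± 1.90 in NTG (SD, n = 3 each), with a log2 fold change of -2.75 ± 0.54 (SE). Without vehicle replicate 3 it was -2.14, smaller in size than that of Tnni2 (-2.30).

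Myh1 encodes the chain of type IIx fibres and lies 13.2 kb upstream of Myh4 on the same strand. Its values were 14.2, 36.0 and 20.9 in vehicle and 9.43, 10.7 and 12.1 in NTG. The groups just failed to touch, and here vehicle replicate 2, not replicate 3, was the highest. The log2 fold change was -0.98 ± 0.45 (SE), and -0.64 without vehicle replicate 2. The 2 myosins are close relatives, but of the windows of 150 bases (1 read length) along the longest coding transcript, 0.511% of those of Myh4 and 2.49% of those of Myh1 recur exactly in another myosin gene, so few reads need be ambiguous between them.

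Neighbours in the myosin cluster were measured as well. Myh2, the chain of type IIa fibres, stood at 27.2, 22.6 and 33.05 normalised reads in vehicle against 24.1, 23.5 and 21.7 after NTG, without a call (limma adjusted p = 0.661, log2 fold change -0.24 ± 0.34). Myh3, the embryonic chain, Myh8, the perinatal chain, and Myh13, the extraocular chain, did not pass either (log2 fold changes 0.14, 0.03 and 0.55). Myh8 was the highest heavy chain of the cluster per kilobase (1.78 CPM per kb in vehicle), with 226 ± 18.1 in vehicle and 231 ± 10.1 in NTG. Every NTG library was lower for Myh4 and Myh1 and for no other heavy chain gene of the cluster. Such lower values were seen in 19.9% of all genes. Myh4 and Myh1 were chosen with their difference known, so no contrast with their neighbours is read from this.

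The make-up of the fast myosin reads was also described library by library. Of all reads on Myh1, Myh2 and Myh4, Myh4 took 30.9%, 36.7% and 63.2% in vehicle replicates 1 to 3 (exact 95% binomial intervals 19.1 to 44.8, 26.8 to 47.5 and 54.4 to 71.4). In NTG replicates 1 to 3 it took 8.57%, 13.5% and 17.0% (intervals 1.80 to 23.1, 4.54 to 28.8 and 7.65 to 30.8). The shares did not overlap between groups, but Myh4 was chosen with its difference known, so this separation restates the choice. The interval of vehicle replicate 1 overlapped that of each NTG library, and the interval of vehicle replicate 2 those of NTG replicates 2 and 3. Myh2 held the largest share in all 3 NTG libraries (53.2% to 65.7%) and, among vehicle libraries, in replicate 1 (45.5%). In vehicle replicate 2 Myh1 held the largest share (38.9%), and in vehicle replicate 3 Myh4.

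**Figure D2:**
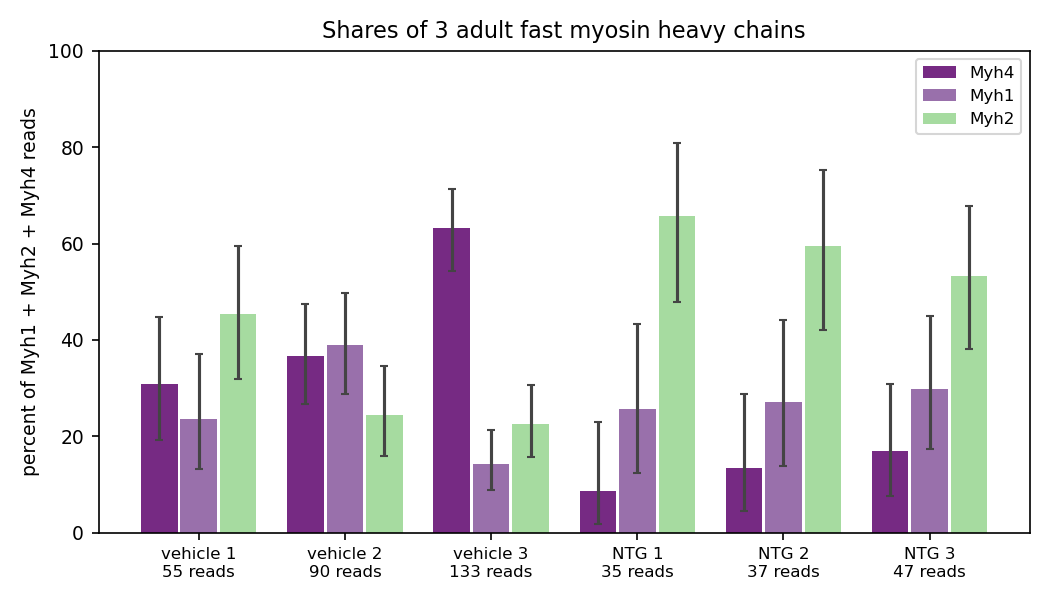
Share of the Myh1, Myh2 and Myh4 reads that each of these genes took in each library, in percent; bars are shares, lines are exact 95% binomial intervals (counting error only), and the number of reads is given under each library. Myh4 takes 30.9% to 63.2% in vehicle and 8.57% to 17.0% in NTG, and it was chosen with its difference known.

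Troponin is the calcium switch of the thin filament. Tnni2, its fast inhibitory subunit, lies on chromosome 7 (142441816 to 142444410, plus strand), 54.4 kb upstream of Tnnt3, the fast subunit that binds tropomyosin. Tnni2 had 13.1, 17.5 and 20.9 normalised reads in vehicle against 3.14, 2.13 and 1.73 in NTG. All 3 NTG values rest on 3 reads or fewer, so the ratio of the group rates, 7.47, has a wide counting interval of 3.36 to 19.6 (95%, conditional exact). The log2 fold change was -2.44 ± 0.63 (SE).

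Tnnt3 followed the same pattern, with 8.72, 13.4 and 16.5 in vehicle and 3.14, 0 and 4.33 in NTG. No read was found in NTG replicate 2, and the group totals were 36 and 8 reads (rate ratio 4.90, counting interval 2.24 to 12.2). Its log2 fold change of -2.26 ± 0.78 (SE) dropped to -1.52 without NTG replicate 2. Every gene of the deposited table has at least 24 reads in total, which Tnni2 and Tnnt3 reach only through their vehicle reads. Their ratios are thus given as a description. Between the pair lies Lsp1, a leukocyte actin-binding protein gene, at 137, 102 and 134 in vehicle and 102, 125 and 123 in NTG. Lsp1 was not called (log2 fold change -0.09 ± 0.18, limma adjusted p = 0.761). The pair was chosen with its difference known, so no contrast with Lsp1 is read from this. Prr33, which overlaps Tnnt3 on the opposite strand, was as low as Tnnt3 (8.83 ± 5.11 in vehicle, 6.08 ± 3.05 in NTG), and reads of the overlap can be told apart only if strand was used in counting, which is not given in the sources used here.

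The calcium-binding subunit of fast troponin, Tnnc2, is not among the 10 genes, but its list was written with earlier results of these data known. Tnnc2 fell from 10.9, 10.3 and 29.7 normalised reads in vehicle to 0, 2.13 and 1.73 in NTG (limma adjusted p = 0.00821, log2 fold change -2.97 ± 0.79). No gene of the deposited table has fewer than 24 reads in total, and Tnnc2 reaches this only through its vehicle reads. Its adjusted p is thus given as a description. All 3 fast troponin subunits were lowest in the NTG libraries, Tnni2 and Tnnt3 having been chosen with this difference known. The call on Tnnc2 was lost without vehicle replicate 3, its highest library (limma adjusted p = 0.0518), and its adjusted p lay between 0.00278 and 0.0518 over the 15 alternatives that gave one. Slow subunits were measured as well. Tnni1 stood at 27.6 ± 3.64 and 19.2 ± 1.81 without overlap between groups, and Tnnt1 at 7.88 ± 6.69 and 9.72 ± 5.85, and neither passed (limma adjusted p = 0.322 and 0.686).

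Atp2a1 encodes the fast fibre pump that returns calcium to the sarcoplasmic reticulum (chromosome 7, 126445858 to 126463103, minus strand). Its values were 29.4, 64.8 and 87.0 in vehicle and 14.7, 18.1 and 15.6 in NTG. The NTG libraries lay close together while vehicle libraries differed 2.96-fold from lowest to highest. The means were 60.4 ± 29.1 and 16.1 ± 1.79, and the log2 fold change was -1.72 ± 0.37 (SE). Its end shares 50 bases with Rabep2 on the opposite strand, which was 21.6 times as abundant and stood at 883 ± 49.98 in vehicle and 770 ± 61.9 in NTG, a smaller relative difference than that of Atp2a1. Atp2a2, the pump of slow fibres, heart and most other cells, stood at 9498 ± 297 and 9719 ± 403 and did not pass (limma adjusted p = 0.675).

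Ckm encodes muscle creatine kinase, which regenerates ATP from phosphocreatine (chromosome 7, 19411094 to 19421583, plus strand). It had 28.3, 45.3 and 36.4 normalised reads in vehicle and 15.7, 11.7 and 6.07 in NTG, with a log2 fold change of -1.69 ± 0.42 (SE). Vehicle replicate 2 was highest and NTG replicate 3 lowest. A930016O22Rik overlaps it on the opposite strand over 3952 bases at a similar level and stood at 20.8 ± 6.98 and 20.6 ± 1.27. The brain form Ckb was far more abundant than Ckm (20376 ± 376 and 17911 ± 695) and fell slightly (log2 fold change -0.19 ± 0.04, limma adjusted p = 0.00394), but its log2 fold change was 0.11 after the trend over GC content and length was removed from each library (limma adjusted p = 0.0659).

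Acta1 encodes skeletal alpha-actin of the thin filament (chromosome 8, 123891758 to 123894775, minus strand). Its values were 27.2, 18.5 and 30.8 in vehicle and 10.5, 11.7 and 9.54 in NTG. Unlike Myh4 and Atp2a1 it was lowest among vehicle libraries in replicate 2. The log2 fold change was -1.17 ± 0.42 (SE), and -0.97 after removal of the GC and length trend. Its rate ratio of 2.42 had a counting interval of 1.57 to 3.79.

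Mylpf encodes the fast regulatory light chain of myosin (chromosome 7, 127208848 to 127214288, plus strand). It had 25.1, 10.3 and 13.2 normalised reads in vehicle and 11.5, 9.60 and 12.1 in NTG. The groups overlapped, and only vehicle replicate 1 stood above the rest. The log2 fold change of -0.42 ± 0.49 (SE) shrank to -0.07 without that library, and the counting interval of its rate ratio of 1.44 ran from 0.903 to 2.32. Mylpf shares 1580 bases with Septin1 on the opposite strand, which was 4.63 times as abundant.

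Actn3 encodes the alpha-actinin that anchors thin filaments at the Z-disc of fast fibres (chromosome 19, 4861216 to 4877909, minus strand). Its values were 32.7, 25.7 and 44.1 in vehicle and 32.5, 41.6 and 28.6 in NTG, with means of 34.2 ± 9.25 and 34.2 ± 6.67. The groups overlapped fully, and the log2 fold change was 0.02 ± 0.31 (SE), with values from -0.16 to 0.21 when 1 library was left out. The counting interval of its rate ratio, 0.752 to 1.34, leaves out the spread between libraries. The 7 genes without overlap had ratios of 2.21 to 9.12 but were chosen with their difference known, so no contrast with Actn3 is read from this.

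Pvalb lies on chromosome 15 (78191112 to 78206400, minus strand). It stood at 1307, 1192 and 1240 normalised reads in vehicle and 1202, 1269 and 1366 in NTG. The groups overlapped, the log2 fold change was 0.04 ± 0.07 (SE), and Pvalb alone made up 77.4% to 93.4% of the summed CPM of the 10 genes. Of 7 genes of proprioceptors and other large neurons, 3 rose (Etv1, Spp1 and Calb1, log2 fold changes 0.36, 0.36 and 0.41) and 1 fell (Whrn, -0.51), against 12.3% of all genes that rose and 13.5% that fell, but none of them passed after removal of the GC and length trend.

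**Figure D3:**
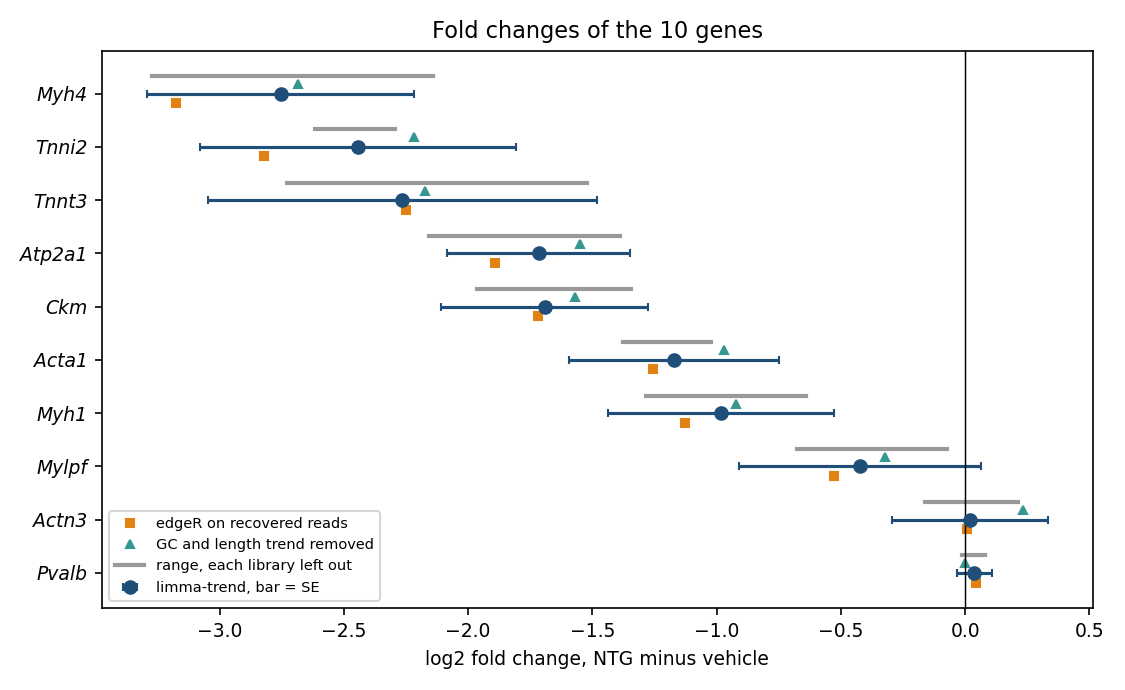
Log2 fold changes of the 10 genes, NTG minus vehicle, by limma-trend with its SE, by edgeR on recovered reads, after removal of the GC and length trend, and as the range over fits that leave out 1 library. The limma values run from -2.75 for Myh4 to 0.04 for Pvalb; over the other fits shown Myh4 reaches -3.27 (without vehicle replicate 1) and Actn3 0.23 (GC and length trend removed), and the ranges of Actn3 and Pvalb cross 0.

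Per kilobase of transcript, the muscle genes other than Pvalb ran from 1.08 to 0.188 CPM in vehicle. Tnni2 (1.08 ± 0.242 CPM per kb) and Mylpf (1.02 ± 0.503) came first after Pvalb (61.7 ± 3.29). Acta1 (0.855 ± 0.213), Atp2a1 (0.839 ± 0.400), Ckm (0.646 ± 0.145), Tnnt3 (0.576 ± 0.173) and Actn3 (0.572 ± 0.155) followed. Myh4 (0.388 ± 0.312) and Myh1 (0.188 ± 0.0878) closed the order, and no 2 neighbours below Pvalb differed beyond their SDs. In NTG the order was another one: Mylpf (0.708 ± 0.0852) and Actn3 (0.580 ± 0.112) led below Pvalb (64.0 ± 3.53), and Myh4 was last at 0.0417 ± 0.0151. The lengths are those of the longest coding transcript in GENCODE M21, which may not be the form present.

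Across these libraries the direction of change also followed base composition, and the 10 genes have transcripts of 49.3% to 57.0% GC, against a median of 50.2%. Genes within 1 percentage point of each had median log2 fold changes between -0.20 (around Acta1) and 0.06 (around Pvalb). After the trend over GC content and length was removed from each library, Myh4 stood at -2.68, Tnni2 at -2.22, Tnnt3 at -2.17, Ckm at -1.57, Atp2a1 at -1.55 and Myh1 at -0.92. The call then held 4 of the 10 (Myh4, Atp2a1, Ckm and Tnni2), where 5.15% of 16071 genes fell and 4.08% rose; as the genes were chosen on the same contrast, nothing is read from this count.

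Other skeletal muscle genes came from 6 lists written with earlier results known. Of 79 genes listed, 45 were in the table and tested, of which 4 fell and 1 rose. That is 8.89% falling, against 13.5% of all genes, and their median log2 fold change was -0.20, against 0.00 for all genes. Fold changes were negative in 29 of the 45, against 8712 of all 17475, and every NTG library was lower in 7 and higher in 3 of them, against 19.9% and 19.7% of all genes. After removal of the GC and length trend the median was -0.06, with 2 falls and 0 rises, where 5.15% of all genes fell and 4.08% rose. Myogenic regulators were represented by Pax3 alone, a gene also of neural crest derivatives (12.2 ± 5.06 and 6.33 ± 2.88, limma adjusted p = 0.323). Myod1, Myog, Myf5, Myf6 and Pax7 were not in the deposited table, nor was Myl1 of the fast fibre list. That table holds no gene with fewer than 24 reads in total. Among slow and oxidative fibre genes 0 of 4 were called, and Myh7, Myl2, Myl3 and Mb were not in the deposited table.

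Among the 13 other fast fibre genes tested, Tnnc2 and Eno3 fell. Eno3 encodes muscle enolase, a glycolytic enzyme, and went from 1735, 1938 and 1677 normalised reads to 761.6, 793 and 866 (log2 fold change -1.14 ± 0.07, limma adjusted p = 1.92e-08). Per kilobase it stood at 55.1 CPM in vehicle, where Ckm stood at 0.646, and in NTG it kept 25.2 CPM per kb, above any level of the muscle genes other than Pvalb. Eno3 overlaps the more abundant Pfn1 on the opposite strand over 3675 bases. Pfn1 was also lower after NTG (4756 ± 113 in vehicle, 3791 ± 203 in NTG). Reads of the overlap can be told apart only if strand was used in counting, which is not given in the sources used here. The part of Pfn1 reads in the Eno3 values was not tested. Of the 17 sarcomere genes shared by striated fibres, 1 fell and 1 rose. The one that rose was Neb, the ruler of the thin filament (594 ± 14.8 to 711 ± 40.7, log2 fold change 0.26 ± 0.08, limma adjusted p = 0.0250). Neb was not called without vehicle replicate 1, NTG replicate 1 or NTG replicate 2, nor after removal of the GC and length trend (limma adjusted p = 0.470).

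On the muscle side of the neuromuscular junction, 1 of 5 genes tested fell. It was Dok7, an activator of the receptor kinase MuSK, from 379 ± 1.27 to 304 ± 36.8 (limma adjusted p = 0.0355, log2 fold change -0.32 ± 0.11). That call was lost when any library but NTG replicate 3 was left out and after removal of the GC and length trend (-0.00, 0.993). Myosins and actins of development and of special muscles had 0 of 5 called. Heart genes had 0 of 6 called, with Ryr2, a calcium release channel that neurons also use, as the most abundant (1986 ± 94.2 and 2192 ± 49.1).

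**Figure D4:**
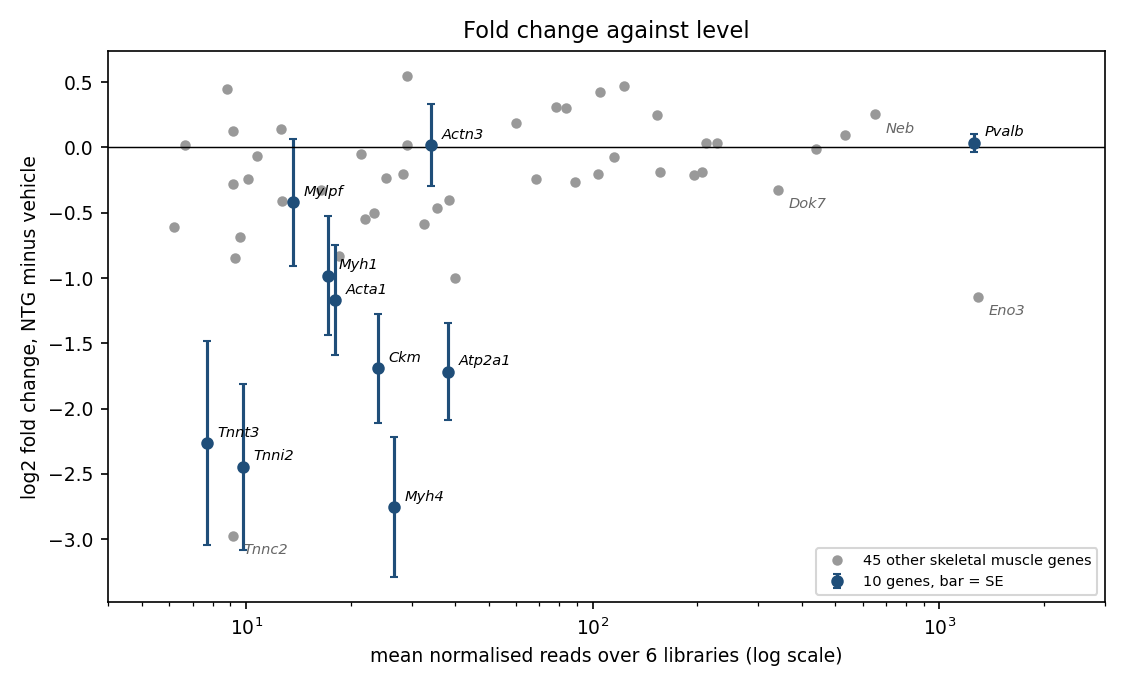
Log2 fold change, NTG minus vehicle, against the mean normalised reads over the 6 libraries (log scale) for the 10 genes (blue, with SE) and the 45 other skeletal muscle genes tested (grey; Tnnc2, Eno3, Neb and Dok7 are named). The lowest points belong to low fast fibre genes, Tnnc2 among them, while Pvalb sits at 0.04.

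Markers of tissues that lie near the ganglion were measured in the same libraries, and their part in the muscle values was not tested. The 5 pituitary genes summed to 125, 75.9 and 189 CPM in vehicle and to 16.5, 98.2 and 115.6 in NTG. The sum was highest in vehicle replicate 3, as Myh4 was, and the groups overlapped in it. Pomc was the only one called (log2 fold change -1.42 ± 0.33, limma adjusted p = 0.00392), and 16 of the 17 alternatives kept that call. Fold changes were negative in 4 of the 5 genes, with a median of -1.13, and positive in Tshb (0.49). Every NTG library was lower for Pomc and Prl, a pattern shown by 19.9% of all genes. The 2 choroid plexus genes summed to 2.58 to 4.62 CPM in vehicle and to 23.8, 3.07 and 2.52 in NTG, the high value being Ttr in NTG replicate 1. Without NTG replicate 1 the log2 fold changes of Myh4, Atp2a1 and Ckm were -2.50, -1.65 and -1.96.

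Smooth muscle genes (8 of 10 tested) summed to 222 to 267 CPM in vehicle and 216 to 231 in NTG, with 1 fall, that of Tagln (646 ± 69.2 to 526 ± 35.9, log2 fold change -0.29 ± 0.09, limma adjusted p = 0.0274; lost without vehicle replicate 1, vehicle replicate 2, NTG replicate 1 or NTG replicate 2). Tendon genes (7 of 7 tested) summed to 66.7 to 82.9 and 75.1 to 83.4 CPM. Bone and cartilage genes (6 of 7 tested) summed to 19.2 to 28.4 and 14.7 to 19.7 CPM, with vehicle replicate 2 highest. None of the fat cell genes listed was in the deposited table. None of these lists had a gene at 0 in any library, but no gene of the deposited table has fewer than 24 reads in total. The groups overlapped in the sums of all these lists. They did not in the sum of the 9 muscle genes without Pvalb. Those genes were chosen with this difference known, so nothing is read from the contrast.

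**Figure D5:**
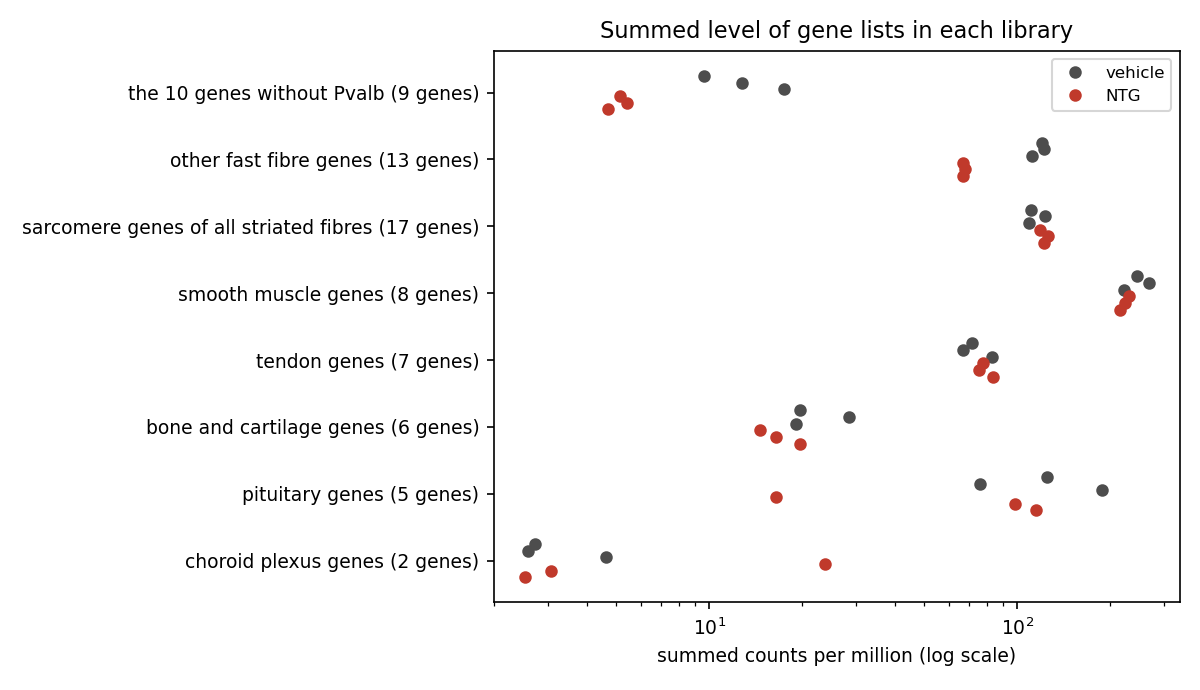
Summed CPM (log scale) of gene lists in each vehicle (grey) and NTG (red) library. The 9 muscle genes without Pvalb lie at 9.62 to 17.5 CPM in vehicle and 4.71 to 5.40 in NTG; the other fast fibre genes, which Eno3 dominates, also separate, and the pituitary and choroid plexus lists each have NTG replicate 1 far from the other libraries.

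Other genes were ranked by how like their profile over the 6 libraries was to the mean profile of the 9 muscle genes. Among 16712 genes with a mean of at least 10 normalised reads, the 12 with the highest Pearson correlation reached 0.991 to 0.997 over the 6 libraries, which share the split into groups. None of these 12 was on a muscle list, but the level asked for left out Tnnc2, as it did Tnni2 and Tnnt3. The profile also comes from genes chosen on this contrast. The ranking thus cannot tell whether muscle genes vary together. The 12 included Nup188, a nuclear pore scaffold gene (472, 491 and 507 in vehicle, 418, 419 and 414 in NTG), Efnb1, an ephrin ligand gene (929, 981 and 1040 against 771, 717 and 769), Lzts2, and Polr2e, a subunit of RNA polymerase II. Myh4 and Atp2a1, themselves part of the profile, correlated at 0.957 and 0.954. Acta1 followed at 0.918, Ckm at 0.895, Myh1 at 0.815, Mylpf at 0.350 and Actn3 at 0.049. Eno3, the most alike of the other muscle genes above this level, correlated at 0.9502 and ranked 453 among the 16712 genes.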

How the data were processed

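Poly(A)-selected RNA from 6 ganglion libraries was sequenced in pairs of 150-base reads with a strand-specific kit, per the labels' protocols. The submitters' processing notes name FastQC, HISAT2 and GRCm38; the counter and its strand setting: not given in the sources used here. The deposited table holds a signal, read counts that the authors divided by 1 size factor per library. Dividing by the smallest step gave whole reads for 100% of values (tolerance 0.01).

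The 17475 genes that reached 1 normalised read in 3 or more libraries were fitted with limma 3.58.1 (trend, robust) on log2(value + 1), which understates the change of low genes. Benjamini-Hochberg adjustment ran over all of them, with a threshold of 0.05. The scripts were tested on simulated data. The 17 alternatives were other pseudocounts, filters and scalings, edgeR 4.0.16 and DESeq2 1.42.0 on recovered reads, a replicate block, removal of a GC and length trend per library (mgcv 1.9.3, the 16120 genes with values in GENCODE M21), and leaving out each library. CPM are recovered reads scaled to the library's total over genes. Intervals cover counting error only.

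The 10 genes and the 16 lists beside them were chosen with earlier results of these data known. The text names all 10, up to 4 called genes per list by smallest p, or else its most abundant gene, and the 12 genes most alike in profile; some genes that this rule selects are not reported here. Tnni1, Tnnt1, Myh2, Myh3, Myh8, Myh13, Atp2a2, Lsp1, Prr33 and other overlapping genes were named as relatives or neighbours.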

Additional observations from a re-analysis of the deposited data

How the results depend on the processing

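Over the 17 alternatives Pvalb and Actn3, both near 0, changed sign: Pvalb stood at -0.00085 after removal of the GC and length trend and -0.01 without NTG replicate 3, and Actn3 at -0.16 without vehicle replicate 2 and -0.13 without NTG replicate 2. Of the 10 genes' fold changes 162 moved by less than the spread between replicates and 3 by more, all of these for Tnni2 (-1.73 with a pseudocount of 4, -2.82 with edgeR, -2.89 with DESeq2). The number of the 10 genes past the threshold was 3 with DESeq2, which gave no adjusted p for some low genes. With DESeq2 13% of all genes fell and 11.8% rose. The number was also 3 with a mean of at least 1 CPM, where only 5 were tested and 2420 of 15242 genes fell. It was 4 to 6 when 1 library was left out. As the 10 genes were chosen on this contrast, nothing is read from these counts. The other skeletal muscle genes called numbered 3 with DESeq2, 2 after removal of the GC and length trend, and 2 to 5 when 1 library was left out (2 without vehicle replicate 1; 3 without vehicle replicate 3, NTG replicate 1 or NTG replicate 2). Their median was -0.0588 after removal of the trend, and -0.23 to -0.11 without 1 library. Genes called in all numbered 4512, 1483 after removal of the trend, and 2946 (without NTG replicate 2) to 4678 without 1 library. The cause of these shifts was not tested. With 7 to 34 NTG reads behind each of the genes from Myh4 to Mylpf other than Atp2a1, depth limits their folds.

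Same-numbered libraries did not deviate together (correlations 0.00366, -0.0943 and 0.032 over 15242 genes). With 3 libraries per group, these values cannot exclude that samples were paired by number. A replicate block called 5254 of 17475 genes, 2773 of them lower, and 5 of the 10 genes, all lower. The block together with removal of the trend gave 2076 called genes, 2 called other muscle genes and a median of -0.0588 for these.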

Other observations

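Broadly expressed relatives of the muscle genes were abundant in the ganglion. Of 13 such genes, 5 fell (Myh14, Ckb, Actb, Actn1 and Actn4) and 2 rose (Myh10 and Myl12b), where 13.5% of all genes fell and 12.3% rose. After removal of the GC and length trend there were 2 falls and 3 rises, where 5.15% of all genes fell and 4.08% rose. Myh14 and Ckb then changed sign (log2 fold changes 0.07 and 0.11) and Actn4 was no longer called (limma adjusted p = 0.169). Beta-actin, Actb, fell by 0.22 on the log2 scale (limma adjusted p = 0.000804). Of the 12 genes of ganglion neurons and glia, 3 fell, among them Pou4f1 and Fabp7, and 1 rose (Scn9a), against 13.5% and 12.3% of all genes. After removal of the trend 2 fell and 3 rose, against 5.15% and 4.08% of all genes. Pou4f1, a transcription factor of sensory neurons, had a log2 fold change of -0.41 (limma adjusted p = 0.000199).

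Of the tendon genes, Scx and Comp fell and Mkx rose (log2 fold changes -0.42, -0.63 and 0.58), and none passed after removal of the GC and length trend, where Scx stood at 0.03. Col2a1, the collagen of cartilage, fell (-0.82, limma adjusted p = 0.009), and its call was lost without vehicle replicate 2 or NTG replicate 1 and after removal of the trend. Ttr, a carrier protein made in choroid plexus, stood at 415 normalised reads in NTG replicate 1 and at 2.18 to 19.8 in the other libraries.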
